A study of Mus musculus with 3 samples.

Results

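Hair follicle keratinocytes from mouse dorsal skin in telogen, the resting phase of the hair cycle, are described here by single-cell RNA sequencing. The cells were chosen by measured values. A follicle keratinocyte had at least 10 unique molecules (UMIs) of the basal keratins Krt14 and Krt5 summed, at least 1 UMI of at least 2 of the 6 follicle genes Krt17, Krt79, Sox9, Lhx2, Postn and Fst, and at most 1 UMI of the leukocyte genes Ptprc and Tyrobp summed. This rule selected 778 of the 16604 cells that passed the cell limits of the study, out of 19366 barcodes: 199 in WT_Ctrl, 141 in WT_UV and 438 in RP_UV. The remaining 1247 keratinocytes passed the same limits with fewer than 2 follicle genes and served as the comparison cells (624, 166 and 457 in the same order). Where 3 values are given in a row, they stand for WT_Ctrl, WT_UV and RP_UV.

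All 3 libraries came from 8-week-old male C57Bl/6 mice and were made with the 10x Genomics 3′ chemistry after CD45+ magnetic beads had enriched immune cells, so keratinocytes are cells that came through an immune enrichment. WT_Ctrl was wild-type skin without ultraviolet B (UVB). WT_UV was wild-type skin after 3 UVB exposures given on alternating days. RP_UV was skin after 3 UVB exposures from 1 mouse of the Rosa26-rtTA; Tre-Ptgs2 (RP) line, in which doxycycline switches on rat Ptgs2, the gene for cyclooxygenase 2 (Cox-2), in all tissues, and both irradiated skins were collected on day 5 per the methods. Whether the wild-type mice of these libraries received doxycycline is not given in the sources used here, so transgene and doxycycline cannot be told apart. The methods name C57Bl/6N or C57Bl/6J as background of the mouse lines, without saying which the mice of these libraries had. Transgene and substrain thus cannot be told apart either. No irradiated control with a single transgene and no unirradiated RP skin was analysed here. Each group was 1 library, so no test was run, no difference has a replicate check, and every interval below is a 95% interval of counting error only. The labels place WT_Ctrl and RP_UV on 1 flow cell and WT_UV on another, so run and group cannot be told apart wherever WT_UV is compared.

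The hair follicle is an appendage of the epidermis with its own stem cells. Its bulge, which carries Krt15, Cd34, Lgr5 and Lhx2, holds the hair follicle stem cells and, in telogen, the melanocyte stem cells. The upper follicle (isthmus, infundibulum and the duct of the sebaceous gland) carries Krt79, Lrig1, Plet1 and Gata6 and opens to the interfollicular epidermis. Cox-2 converts arachidonic acid to prostaglandin H2, from which the prostaglandin synthases make PGE2 and related lipids.

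The label was checked against its markers. Members had a UMI of Krt17, a keratin of the outer root sheath, in 63.3%, 79.4% and 84.0%, of Krt79 in 41.2%, 71.6% and 59.4%, of Sox9 in 69.3%, 78.7% and 61.4%, of Lhx2 in 23.6%, 10.6% and 18.5%, of Postn in 34.2%, 29.1% and 34.9% and of Fst in 49.7%, 48.2% and 34.7%. These shares are what the rule selected on, so they are a description. The list counts that follow also describe cells chosen by follicle genes, and the share over all genes was not counted. Of the 11 genes of an upper follicle list, of which the rule used none, 7, 7 and 8 had a higher level in the members than in the remaining keratinocytes. Of the 18 genes of a bulge list, of which the rule also used none, 17, 15 and 16 had a higher level in the members. Among them was Cd34 at 33.6, 10.0 and 32.0 CPM (UMIs of the gene per 1000000 UMIs, summed over the members of a library) against 1.94, 0 and 2.43 CPM in the remaining keratinocytes, and Lgr5 stood at 30.7, 10.0 and 12.7 CPM against 1.21, 0 and 0.911 CPM. Krt15, which basal keratinocytes also carry, went the other way in the wild-type libraries, at 6276, 3448 and 1753 CPM in the members against 9263, 4235 and 1285 CPM. The summed list, mostly Krt15, was 7851, 4692 and 2784 CPM in the members and 9833, 4633 and 1677 CPM in the rest. Genes that define immune cells were low: summed over 9 macrophage markers the members held 62.0, 106 and 176 CPM, over 7 T cell markers 47.4, 69.7 and 69.9 CPM and over 7 neutrophil markers 5.11, 17.1 and 58.8 CPM. Melanocyte markers summed to 27.0, 20.9 and 11.7 CPM over 8 genes, of which 5, 5 and 3 were at 0. Fibroblast markers summed to 35.8, 26.7 and 94.1 CPM over 7 genes, and endothelial markers to 1.46, 40.9 and 10.9 CPM over 5 genes. Dendritic and Langerhans cell markers summed to 281, 227 and 36.7 CPM over 7 genes, lowest in RP_UV, and mast cell markers to 0.730, 2.09 and 5.46 CPM over 5. The libraries shared 8, 11 and 10 barcodes pairwise, none of them between members. A level of 0 CPM stands for no UMI, which allows up to 2.19, 1.25 and 0.780 CPM (3 UMIs) in the members of WT_Ctrl, WT_UV and RP_UV.

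Depth differed between the libraries. The median member held 5277 UMIs over 1939 genes in WT_Ctrl, 16479 UMIs over 3511 genes in WT_UV and 7950 UMIs over 2362 genes in RP_UV, and 46 members of WT_UV had 4000 genes or more, a size that the limits removed from the other libraries. At the edge of the rule, 90, 43 and 192 members had exactly 2 follicle genes and 146, 52 and 257 keratinocytes stayed outside with 1, while 23, 5 and 37 members had 10 to 14 UMIs of Krt14 and Krt5 and 22, 7 and 27 cells that met every other condition had 5 to 9. A deeper cell passes such a rule more easily, so shares are also given after every cell was thinned to 2000 UMIs, which left out 5, 5 and 43 members, 37, 27 and 86 remaining keratinocytes and 86, 20 and 30 of the 399, 891 and 91 T cells that serve below as cells without follicle genes. The T cells were called by UMIs of Cd3 genes. T cell markers summed to 5935, 3783 and 4032 CPM over them, and dendritic and Langerhans markers to 24263, 25395 and 15798 CPM. In RP_UV they also held 12980 CPM of macrophage markers. How many of them were other immune cells or 2 cells in 1 droplet was not tested. As a measure of free keratinocyte RNA, 2.74%, 3.94% and 13.9% of thinned immune cells had a UMI of Krt14, most in RP_UV.

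Follicle keratinocytes were a larger share of all keratinocytes in both irradiated skins. They made up 24.2% (21.3 to 27.3) of the 823 keratinocytes of WT_Ctrl, 45.9% (40.3 to 51.7) of 307 in WT_UV and 48.9% (45.6 to 52.3) of 895 in RP_UV. With the rule applied after thinning, the shares were 11.4%, 27.9% and 32.4%, in the same order. Without Krt17 in the rule they were 18.5%, 38.1% and 33.7%, a smaller gap for RP_UV, whose Krt17 was highest. Of all kept cells the members were 3.75%, 2.70% and 7.22%, shares that the bead enrichment also sets.

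The members divided into a bulge-type, with a UMI of the bulge genes Lhx2 or Postn and none of Krt79, and an upper-follicle-type, with a UMI of Krt79 and none of Lhx2 or Postn. Bulge-type cells numbered 81, 30 and 139, and upper-follicle-type cells 71, 84 and 218. The bulge-type was 40.7% (33.8 to 47.9) of the members in WT_Ctrl, 21.3% (14.8 to 29.0) in WT_UV and in RP_UV 31.7% (27.4 to 36.3), whereas the upper-follicle-type was 35.7% (29.0 to 42.8), 59.6% (51.0 to 67.7) and 49.8% (45.0 to 54.6). Thus the upper-follicle-type outnumbered the bulge-type in both irradiated skins, whereas in WT_Ctrl the intervals of the types overlapped. With the rule itself applied after thinning, the bulge-type was the larger in WT_Ctrl (53.4% against 20.5% of 73 cells), and the upper-follicle-type stayed the larger in WT_UV (58.3% against 23.3% of 60) and RP_UV (52.9% against 28.6% of 206). With the members as they were and their UMIs thinned, the bulge-type was 28.4% (22.1 to 35.2), 14% (8.63 to 21.0) and 22.5% (18.5 to 27.0), and the upper-follicle-type 32.0% (25.5 to 39.0), 49.3% (40.6 to 58.0) and 43.8% (38.8 to 48.8), in the same order of libraries. Members with genes of both types numbered 11, 17 and 42 and had median depths of 7209, 17351 and 8955 UMIs. These lay above the medians of the bulge-type (4700, 16880 and 6291), but above those of the upper-follicle-type (8357, 13861 and 10041) only in WT_UV. Whether some of the members with genes of both types were 2 cells in 1 droplet was not tested.

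**Figure D1:**
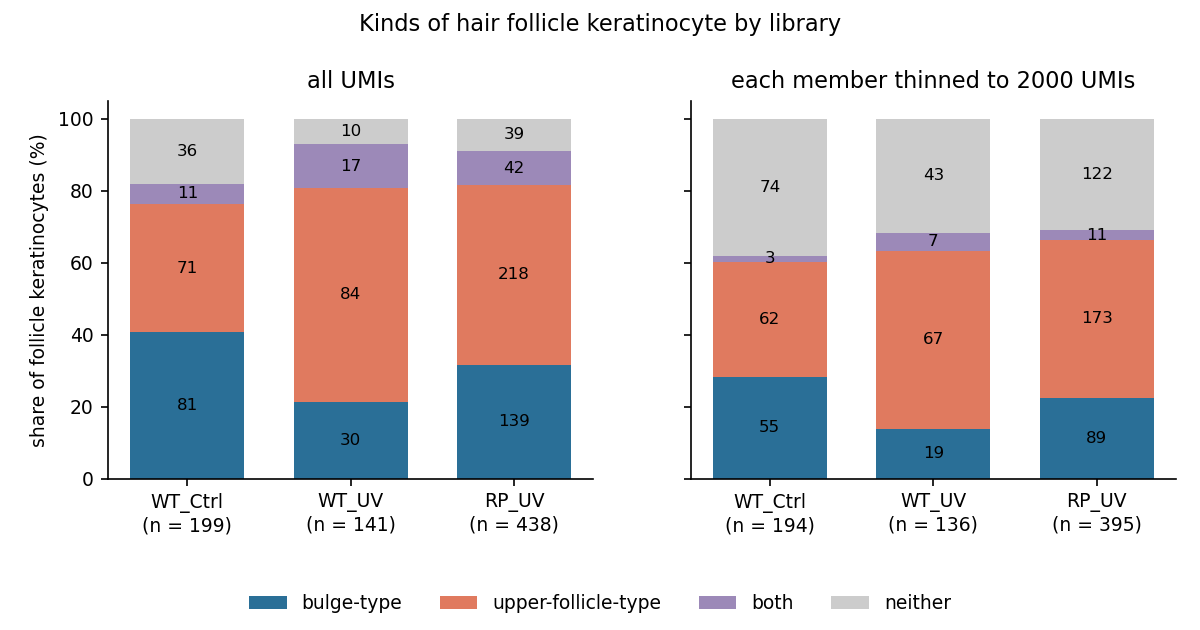
Stacked bars give the percent of follicle keratinocytes of each library that were bulge-type, upper-follicle-type, both or neither, with cell numbers in the bars, for all UMIs (left) and with each member thinned to 2000 UMIs (right). The bulge-type share was lowest in WT_UV (30 of 141 cells) in both panels.

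The genes that set follicle keratinocytes apart from the remaining keratinocytes were those of the upper follicle and the bulge, which describes the selection. The 10 genes outside the rule with the highest smallest ratio over the 3 libraries were Defb6, Cst6, Ptn, Ccn2, Fzd7, Adgrl3, Sostdc1, Foxc1, Calml3 and Hmcn1. Defb6, a beta-defensin, stood at 1842, 6630.5 and 1146 CPM in the members against 19.1, 15.8 and 38.6 CPM in the remaining keratinocytes. Cst6, the cysteine protease inhibitor cystatin M/E, stood at 5048, 8871 and 9941 CPM against 57.6, 223 and 539 CPM. Both belonged to the upper-follicle-type, where Cst6 reached 10682, 14950 and 16447 CPM and the bulge-type had 54.7, 111 and 301 CPM. A few cells held much of it, since the highest single member carried 19.4%, 12.1% and 21.4% of the Cst6 UMIs.

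Several other identity genes belonged to the bulge-type. Ptn, the growth factor pleiotrophin, stood at 1678, 707 and 1186 CPM in the bulge-type and 269, 199 and 88.1 CPM in the upper-follicle-type. Ccn2 (connective tissue growth factor), a matricellular protein, stood at 123, 77.5 and 161 CPM and 14.1, 11.1 and 7.76 CPM, and Hmcn1, which encodes the extracellular protein hemicentin 1, at 118, 51.7 and 108 CPM and 3.13, 4.75 and 0.913 CPM. Sostdc1, a secreted BMP and WNT antagonist, was present in both types, at 698, 380.3 and 268 CPM and 416, 411 and 206 CPM. Foxc1, a transcription factor of bulge stem cell quiescence, was higher in the upper-follicle-type here (136, 187 and 68.9 CPM) than in the bulge-type (48.1, 35.1 and 27.1 CPM). The 5 genes lowest in the members were Ndufa4l2, Mt4, Krt1, Serpinb2 and Krt10, of which Krt1 and Krt10 are the keratins of the suprabasal interfollicular epidermis, and Krt10 stood at 445, 1060.2 and 703 CPM against 2278, 3809 and 3384 CPM.

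**Figure D2:**
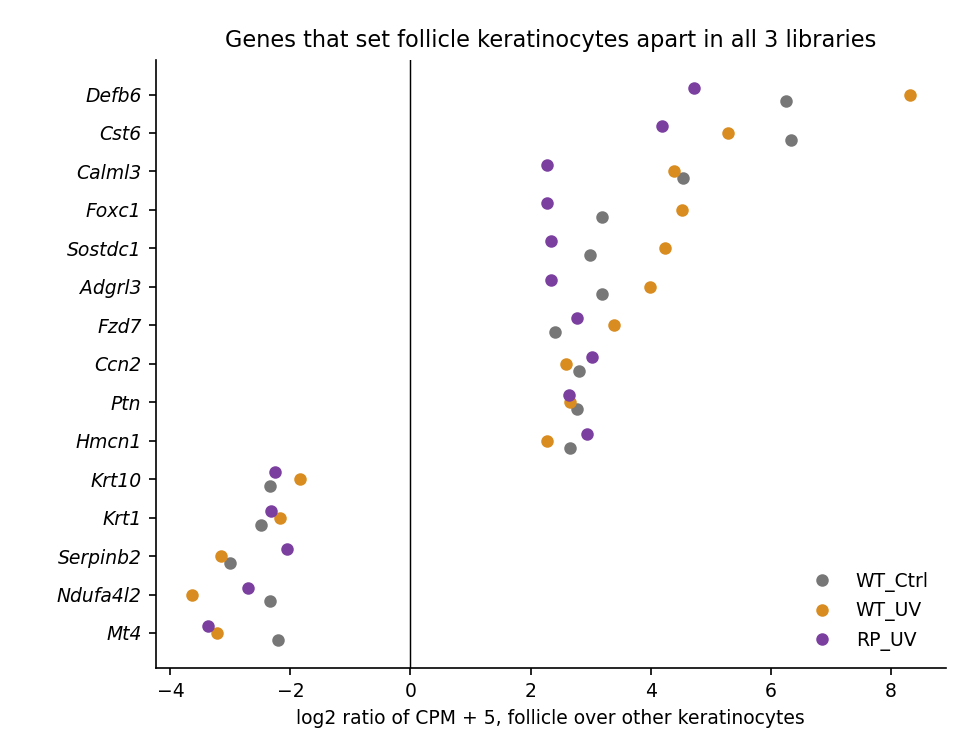
The log2 ratio of CPM + 5 between follicle keratinocytes and the remaining keratinocytes is plotted for the 15 identity genes, 1 point for each library. The 10 upper genes lie at 2.27 or above and the 5 lower genes at -1.84 or below in all 3 libraries, with Defb6 and Cst6 the farthest to the right.

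Ptgs2, the gene the RP mice overexpress, was all but absent from wild-type follicle keratinocytes and abundant in RP_UV. It stood at 2.19 CPM (0.452 to 6.4) in WT_Ctrl, while WT_UV held 1.67 CPM (0.455 to 4.27) and RP_UV 561 CPM (537 to 585), from 3, 4 and 2156 UMIs. RP_UV was 336-fold (131 to 1234) higher than WT_UV and 256-fold (87.5 to 1242) higher than WT_Ctrl. The high level in RP_UV was not particular to the members. The remaining keratinocytes held 8.71, 7.88 and 588 CPM, and immune cells 22.1, 132 and 549 CPM. The transgene is of rat origin, and how fully its reads were counted on the mouse genome is not given in the sources used here. The upper-follicle-type of RP_UV held 639.6 CPM (607 to 674) and the bulge-type 329 CPM (294 to 366). Among members 0.503%, 1.42% and 57.3% had a UMI of Ptgs2, against 0.501%, 9.54% and 35.2% of T cells at median depths of 2665, 7577 and 3132 UMIs. After thinning to 2000 UMIs the shares were 0.515%, 0% (0 of 136 cells, which allows up to 2.21%) and 39.0% of members and 0.639%, 5.40% and 37.7% of T cells, and since the transgene acts in all tissues, the T cells of RP_UV are no measure of free RNA.

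To read single genes against the rest, 5334 genes with a mean of at least 20 CPM over the 3 libraries were compared, and a gene counted as past 2-fold when the ratio of CPM + 5 was at least 2 or at most 0.5 and the counting interval of the ratio left out 1. For WT_UV over WT_Ctrl, 96 genes (1.8%) were past 2-fold higher and 118 (2.21%) lower. For RP_UV over WT_UV, 151 (2.83%) were higher and 149 (2.79%) lower. RP_UV over WT_Ctrl had 207 (3.88%) higher and 256 (4.8%) lower. Under TMM scaling the counts of higher and lower genes became 137 and 84, 172 and 137, and 308 and 162, so that the balance of the first and the last comparison depends on the scaling. The median log2 ratio over all 5334 genes was -0.09, 0.08 and -0.02 in these 3 comparisons, and TMM scaling would move it by 0.13, 0.024 and 0.16. Each library enters 2 of the 3 comparisons.

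Of the other genes of the prostaglandin pathway, the PGE2 receptor gene Ptger4 was lower in RP_UV than in the other libraries and the PGE2-degrading Hpgd was lower in both irradiated skins than in WT_Ctrl. Of 21 list genes 9 were compared, with medians of 0.09, -0.20 and 0.44 on the log2 scale for the 3 comparisons. For WT_UV over WT_Ctrl 2 were past 2-fold higher and 1 lower, for RP_UV over WT_UV 1 higher and 1 lower, and for RP_UV over WT_Ctrl none higher and 2 lower. Ptgs1, the constitutive cyclooxygenase, was measured at 26.3, 72.2 and 40.8 CPM, highest in WT_UV. The PGE synthase genes Ptges, which was below the level for comparison, and Ptges3 were at 9.49, 15.9 and 19.0 CPM and 182, 194 and 263 CPM. Ptger4, which encodes the PGE2 receptor EP4, stood at 42.3, 27.1 and 5.72 CPM, so that RP_UV was 4.74-fold (2.89 to 8.08) below WT_UV and 7.40-fold (4.46 to 12.7) below WT_Ctrl. Both types of follicle cell had little of it, with Ptger4 at 6.03 CPM in the bulge-type and 4.11 CPM in the upper-follicle-type of RP_UV. Hpgd, the dehydrogenase that breaks down PGE2, stood at 51.8, 23.4 and 16.9 CPM and was the 1 gene past 2-fold lower in WT_UV over WT_Ctrl. RP_UV was 3.07-fold (2.16 to 4.36) below WT_Ctrl, and from WT_UV to RP_UV the log2 ratio was -0.37, not past 2-fold. Ptgr1, a prostaglandin reductase, stood at 56.9, 133 and 115 CPM and was 2.34-fold (1.82 to 3.04) higher in WT_UV than in WT_Ctrl. The higher Ptgs1 of WT_UV depended on the deepest cells, as its log2 ratio to WT_Ctrl went from 1.3 to 0.46 when only cells under 4000 genes were kept.

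Over all members, most genes of stressed and wounded epidermis were higher in WT_UV than in WT_Ctrl and higher again in RP_UV. Their median was the highest of all lists of more than 1 gene in WT_UV over WT_Ctrl and in RP_UV over WT_Ctrl. Of 8 compared genes, 6 were past 2-fold higher and 1 lower in WT_UV over WT_Ctrl, 7 and none in RP_UV over WT_UV, and 7 and 1 in RP_UV over WT_Ctrl. Their median log2 ratios were 2.15, 1.57 and 5.11, against -0.09, 0.08 and -0.02 for all compared genes, and 2.71, 2.08 and 5.25 with genes that had no UMI in a library set to their bound. In the remaining keratinocytes the medians of the list were 6.24, 0.44 and 6.44, so the change was not particular to the members. By type, the medians of WT_UV over WT_Ctrl were 2.91 in the upper-follicle-type and 1.15 in the bulge-type. Without cells holding at least as many UMIs of Krt1 and Krt10 as of Krt14 and Krt5, the bulge-type median was 0. For RP_UV over WT_UV these medians were 1.59, 1.40 and 1.92. No UMI was found for 10 and 7 of the 15 list genes in the bulge-type of WT_Ctrl and WT_UV, which limits this comparison. Members that would fail the rule without Krt17 were 23.6%, 17.0% and 31.1% of the members, and their part in this list was not tested. Krt6a, a keratin of the companion layer and of activated epidermis, stood at 14.6 CPM (8.92 to 22.5), 387 CPM (362 to 412) and 1059 CPM (1027 to 1092). WT_UV was thus 26.5-fold (17.0 to 43.5) above WT_Ctrl, and RP_UV was 2.74-fold (2.55 to 2.95) above WT_UV. A UMI of Krt6a was found in 7 of 199, 32 of 141 and 214 of 438 members, or 1.55%, 14% and 34.7% after thinning, against 0% (0 of 313 cells, which allows up to 0.958%), 0.574% and 1.64% of T cells.

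Krt16, its partner keratin in activated epidermis, was at 21.9, 98.5 and 1058 CPM, 4.50-fold (3.07 to 6.82) higher in WT_UV than in WT_Ctrl and 10.7-fold (9.42 to 12.3) higher in RP_UV than in WT_UV. A UMI of Krt16 was found in 31 of 141 and 99 of 438 members of the irradiated skins, and after thinning in 2.06%, 7.35% and 15.9% of members of the 3 libraries, against 0% (0 of 313 cells, which allows up to 0.958%), 1.26% and 1.64% of T cells. Krt6b, a near-identical copy of Krt6a whose reads the counting may have shared, had no UMI in WT_Ctrl and stood at 20.5 and 228 CPM in the irradiated skins, at least 104-fold higher in RP_UV than the WT_Ctrl limit of 3 UMIs per library. In WT_UV a single cell held 87.8% of the Krt6b UMIs. Sprr1b, a precursor of the cornified envelope, also had no UMI in WT_Ctrl and stood at 10.0 and 157 CPM, at least 71.8-fold higher in RP_UV. Klk6, a secreted serine protease, stood at 2.19, 64.7 and 211 CPM, with 39.5% of its RP_UV UMIs in 1 cell. Krt75, the companion-layer keratin, went the other way (54.7, 0 and 7.28 CPM), but 98.7% of its UMIs in WT_Ctrl came from 1 cell of the 2 that had any.

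The stefin A genes, small inhibitors of cysteine proteases, followed the same order with all UMIs, but the order of the 2 irradiated skins depended on the rule. Stfa1 stood at 0.730, 68.5 and 204 CPM and Cstdc5 at 0.730, 460.4 and 871 CPM. Cstdc5 was found in 1, 37 and 184 members, and after thinning in 0% (0 of 194 cells, which allows up to 1.55%), 15.4% and 25.8%, against 0% (0 of 313 cells, which allows up to 0.958%), 3.33% and 0% (0 of 61 cells, which allows up to 4.92%) of T cells. This family has near-identical copies, so the split between its genes is uncertain. When the rule was applied after thinning, the log2 ratio of RP_UV over WT_UV turned from 1.51 to -0.18 for Stfa1 and from 0.91 to -0.44 for Cstdc5, and Cstdc5 also turned, to -0.11, with no cell limits. Lcn2, an iron-binding protein of inflamed epithelium, differed from these in that WT_Ctrl and WT_UV had overlapping intervals (6.57 CPM, interval 3.00 to 12.5, and 7.93 CPM, interval 4.77 to 12.4). RP_UV, at 192 CPM, was 24.2-fold (15.4 to 40.4) above WT_UV. Summed neutrophil markers of the members were also highest in RP_UV (5.11, 17.1 and 58.8 CPM), and the part of free RNA in the Lcn2 value was not tested. Asprv1, a protease of the granular layer, was at 14.6, 127 and 181 CPM. The calprotectin genes S100a8 and S100a9, which neutrophils also express, were below the level for comparison at 4.38, 11.3 and 20.3 CPM and 0, 4.17 and 33.5 CPM, in the order of the summed neutrophil markers, whose part in them was not tested.

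**Figure D3:**
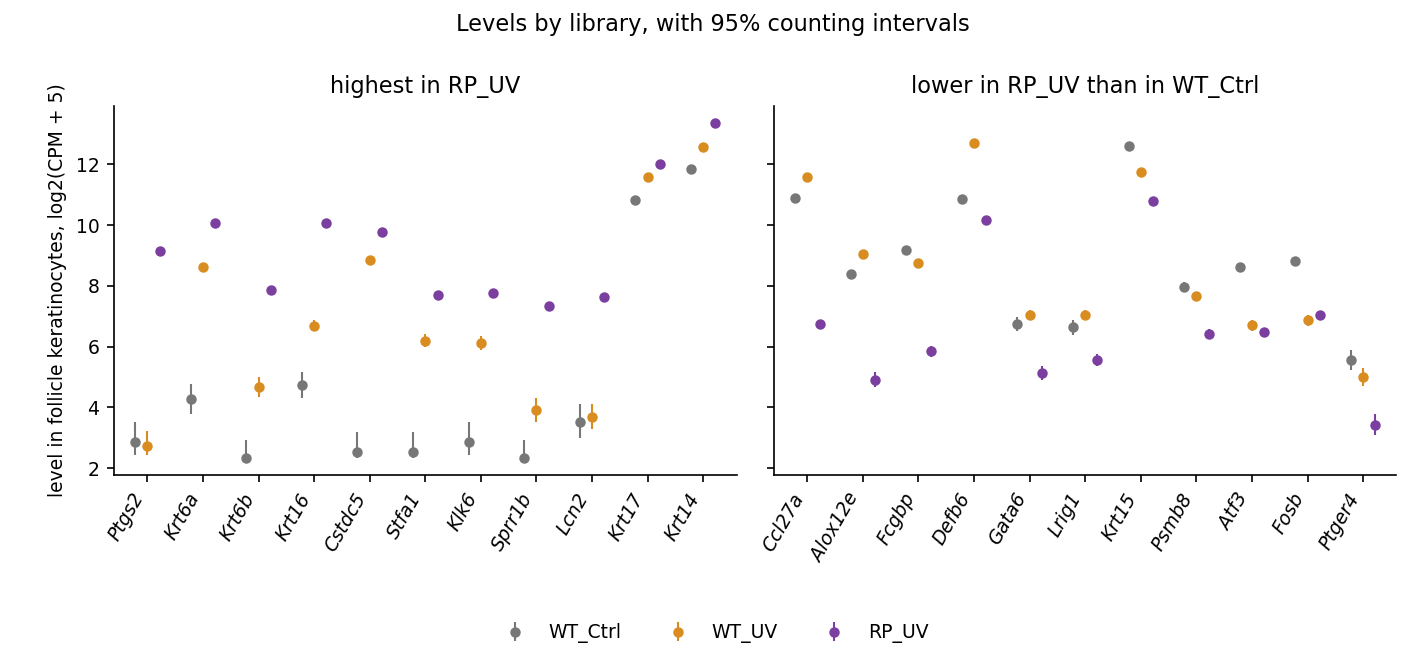
Points give the level of each gene in the follicle keratinocytes of WT_Ctrl, WT_UV and RP_UV as log2(CPM + 5), with 95% counting intervals, from 199, 141 and 438 cells. On the left every gene was highest in RP_UV, and on the right every gene was lower in RP_UV than in WT_Ctrl, with Defb6 highest in WT_UV.

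Among the basal and outer root sheath keratins, Krt14 and Krt17 were higher and Krt15 lower along WT_Ctrl, WT_UV and RP_UV. Krt14 and Krt17 chose the cells, so their levels are a description: Krt14 stood at 3659, 6111 and 10541 CPM and Krt17 at 1800.1, 3042 and 4130.1 CPM. Krt15, a basal keratin strongest in bulge stem cells that the rule did not use, stood at 6276 CPM (6144 to 6410.4), 3448 CPM (3374 to 3523) and 1753 CPM (1712 to 1796). RP_UV was 3.58-fold (3.47 to 3.70) below WT_Ctrl. The order of the irradiated skins turned when the rule was applied after thinning, where the log2 ratio of RP_UV over WT_UV went from -0.97 to 0.29. The types parted over it: in the upper-follicle-type Krt15 stood at 4933, 3689 and 554 CPM and in the bulge-type at 7429.5, 3033 and 4496 CPM. The bulge-type of RP_UV thus lay above that of WT_UV, while its upper-follicle-type held 554 CPM. In the remaining keratinocytes Krt15 stood at 9263, 4235 and 1285 CPM.

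Bulge genes as a list had 14 of 18 genes compared, with medians of -0.51, -0.03 and -0.47 and 4, 1 and 1 genes past 2-fold lower, and none, 3 and none higher. Because the bulge-type was a smaller share of WT_UV, levels within that type are the closer comparison. There the medians of the 14 genes were -0.72, 0.56 and -0.28, or -0.58, 0.43 and -0.28 without cells rich in Krt1 and Krt10. Cd34, a surface marker of bulge stem cells, stood at 101, 20.3 and 121 CPM in the bulge-type. Lgr5, the receptor of R-spondins in cycling follicle stem cells, stood at 89.7, 36.9 and 43.2 CPM, Tbx1, a transcription factor of stem cell self-renewal, at 87.5, 27.7 and 63.3 CPM, and Npnt, the basement membrane protein nephronectin, at 116, 29.5 and 94.5 CPM. All 4 had their lowest level in WT_UV, but the intervals of WT_UV and RP_UV overlapped for Lgr5 (22.6 to 57.0 and 31.3 to 58.2 CPM). Lgr5 was below the level for comparison over all members. Not every gene of the list had this order, as Foxc1, given above, was lowest in RP_UV in the bulge-type. The Cd34 interval of the bulge-type was 99.98 to 144 CPM in RP_UV and 73.7 to 134 CPM in WT_Ctrl, which overlap. Fibroblast markers summed to 65.6, 24.0 and 292 CPM in the bulge-type, highest in RP_UV, and their part in these values was not tested. The WT_UV value rests on 30 cells, of which 3 had at least as many UMIs of Krt1 and Krt10 as of Krt14 and Krt5, and without those 3 Cd34 stood at 18.4 CPM.

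The BMP target genes Id1, Id2 and Id3 had their lowest level in WT_UV, and Id2 and Id3 were past 2-fold below WT_Ctrl there. None of the 3 was past 2-fold in RP_UV over WT_UV, with log2 ratios of 0.82, 0.75 and 0.69. BMP signals keep bulge stem cells at rest and WNT signals start hair growth. Of 21 genes of BMP and WNT signalling 9 were compared, with medians of -0.71, 0.07 and -0.19, and with 2 past 2-fold lower in WT_UV over WT_Ctrl, 1 higher in RP_UV over WT_UV and none in RP_UV over WT_Ctrl. Id1, Id2 and Id3 were at 231, 126 and 226 CPM, 86.9, 33.4 and 59.5 CPM and 185, 66.0 and 109 CPM, and Id3 in the bulge-type at 339, 109 and 324 CPM. Smad7, an inhibitor of the pathway, was at 57.7, 33.0 and 33.3 CPM, level in the irradiated skins. Sfrp1, a secreted WNT inhibitor of the bulge and the 1 gene past 2-fold higher in RP_UV over WT_UV, stood at 101, 51.7 and 221 CPM in the bulge-type. Fst, which encodes the activin and BMP antagonist follistatin and was part of the rule, stood at 367, 259 and 153 CPM. Below the level for comparison, Bmp2, a BMP ligand, was at 24.8, 4.59 and 5.72 CPM, and Grem1, a BMP antagonist, at 28.5, 2.5 and 8.84 CPM. The WNT ligands Wnt4 and Wnt10a were level across the libraries, at 118, 116 and 115 CPM and 49.6, 45.9 and 48.6 CPM. Of 12 genes of the hair germ and of follicle growth 3 were compared, with medians of 0.00, -1.16 and -0.89. Axin2, a WNT target, was at 37.2, 37.1 and 11.2 CPM, Vdr, the vitamin D receptor, at 137, 165 and 71.2 CPM and Cdh3, P-cadherin, at 34.3, 27.5 and 21.6 CPM. Of the 3, none, 2 and 1 were past 2-fold lower in the 3 comparisons and none higher.

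Notch genes had log2 ratios below 0 in RP_UV over WT_UV. Of 10 list genes 5 were compared, all 5 lay below 0 and 2 were past 2-fold lower, with a median of -0.99 against 0.08 for all compared genes. The other comparisons had 1 gene past 2-fold higher (WT_UV over WT_Ctrl, median -0.01) and 2 lower (RP_UV over WT_Ctrl, median -0.65). Hes1, the Notch target, was at 146, 301 and 91.3 CPM, Jag1, a ligand, at 53.3, 53 and 20.8 CPM and the receptor Notch1 at 137, 128 and 61.6 CPM. For Notch1 the log2 ratio of RP_UV over WT_UV went from -0.99 to 0.052 when the rule was applied after thinning. In the wild-type libraries Hes1 was mainly a gene of the upper-follicle-type, while the types lay close in RP_UV (216, 414 and 97.2 CPM, against 63.4, 129 and 81.4 CPM in the bulge-type).

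Of the upper follicle list, 10 of 11 genes were compared. For WT_UV over WT_Ctrl the median was 0.36 with 1 gene past 2-fold higher, and for RP_UV over WT_UV -0.65 with 3 lower. RP_UV over WT_Ctrl had a median of -0.58 with 1 higher and 2 lower. Defb6 had the highest ratio of the list in the first comparison and the lowest in the second, at 1842 CPM (1771 to 1915), 6630.5 CPM (6528 to 6734) and 1146 CPM (1113 to 1181), so that WT_UV was 3.60-fold (3.45 to 3.76) above WT_Ctrl and RP_UV 5.78-fold (5.59 to 5.98) below WT_UV. When the rule was applied after thinning, Defb6 of RP_UV over WT_Ctrl turned from a log2 ratio of -0.68 to 0.99. Within the upper-follicle-type the levels were 3645, 10277 and 1773 CPM. Gata6, a transcription factor of the sebaceous duct lineage, stood at 102, 128 and 30.2 CPM, and Lrig1, an EGF receptor inhibitor that marks isthmus stem cells, at 94.2, 126 and 42.6 CPM, both lowest in RP_UV. Plet1, a surface protein of the isthmus, stood at 110.2, 111 and 66.8 CPM.

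**Figure D4:**
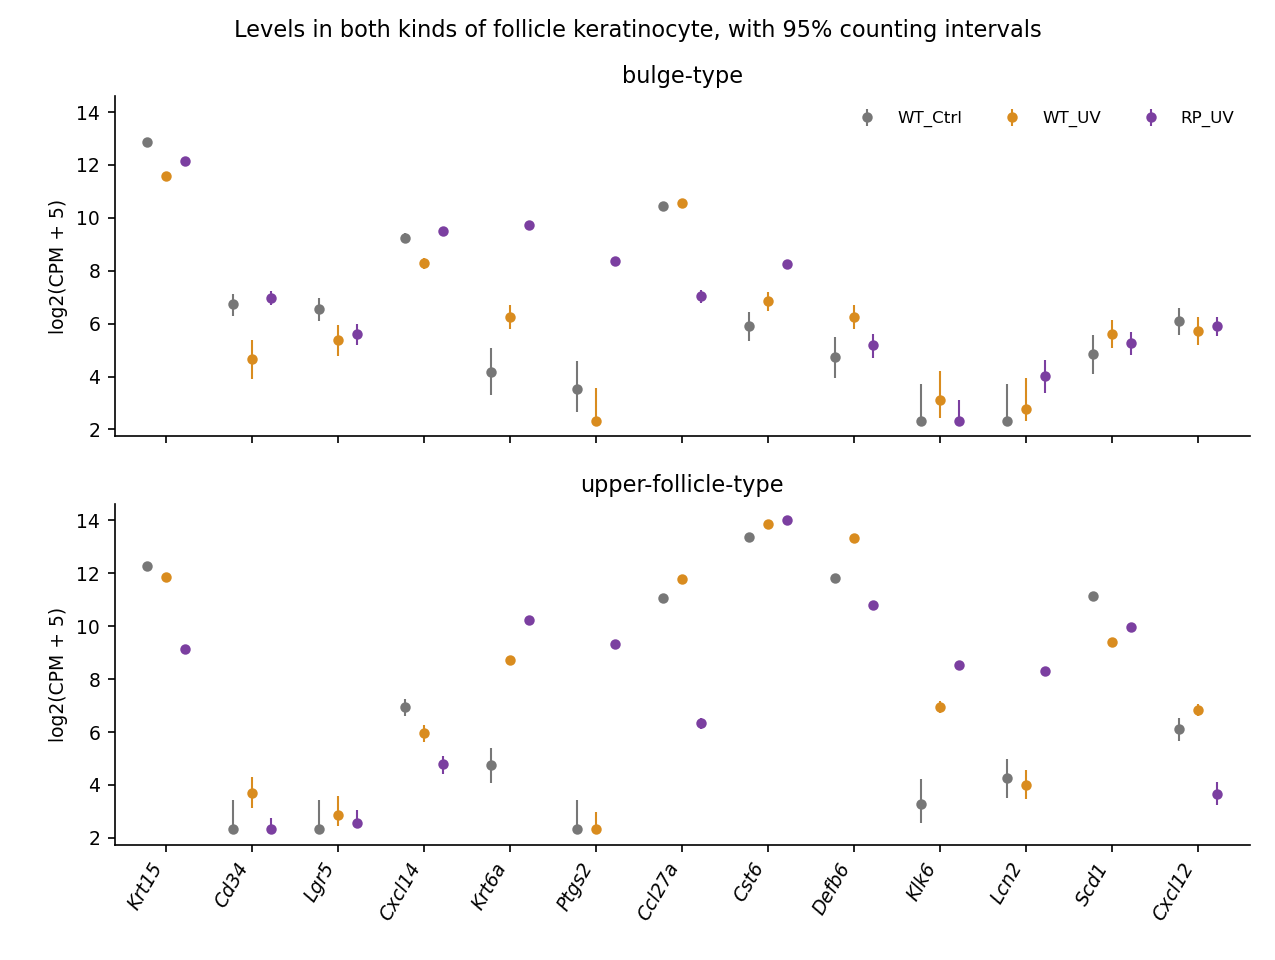
Levels as log2(CPM + 5) with 95% counting intervals for the bulge-type (81, 30 and 139 cells, upper panel) and the upper-follicle-type (71, 84 and 218 cells, lower panel) in WT_Ctrl, WT_UV and RP_UV. Krt6a and Ptgs2 were highest in RP_UV in both panels, whereas Klk6, Lcn2, Cst6, Defb6 and Scd1 belong to the lower panel and Cd34, Lgr5 and Cxcl14 to the upper.

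Most sebaceous genes were lower in WT_UV than in the other libraries. All 10 were compared, 6 were past 2-fold lower in WT_UV over WT_Ctrl, 7 higher in RP_UV over WT_UV, and 3 higher and 1 lower in RP_UV over WT_Ctrl, with medians of -1.26, 1.61 and 0.19. Their sum was 2933, 1058 and 2770.4 CPM in members, 6043, 1839 and 4608 CPM in the upper-follicle-type and 140.0, 179 and 186 CPM in the bulge-type. The remaining keratinocytes summed to 545, 110 and 2659 CPM, also lowest in WT_UV, so the low value was not particular to the members. Mgst1, a microsomal glutathione transferase of sebocytes, was at 788, 241 and 799.6 CPM, and Soat1, which esterifies cholesterol, at 164, 29.6 and 153 CPM. Elovl3, a fatty acid elongase, instead was lowest in WT_Ctrl (49.6, 89.3 and 268 CPM). Scd3, a fatty acid desaturase, stood at 322, 9.60 and 121 CPM, but 1 cell held 81.0% of its UMIs in WT_Ctrl and 1 cell 82.6% in WT_UV. Without the highest cell of each library, the log2 ratio of Scd3 in RP_UV over WT_Ctrl went from -1.37 to 0.49. At least 5 UMIs of the list were found, after thinning, in 8.76%, 4.41% and 17.5% of members and 0.319%, 0.115% and 0% (0 of 61 cells, which allows up to 4.92%) of T cells. Msmo1, an enzyme of cholesterol synthesis, followed the sebaceous order at 282, 58.9 and 231 CPM. The order of the list in WT_UV over WT_Ctrl turned when the rule was applied after thinning (median 0.95).

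Several genes of suprabasal differentiation were higher in the irradiated skins within the cell limits used. Of 8 compared genes 5 were past 2-fold higher in WT_UV over WT_Ctrl and 4 in RP_UV over WT_Ctrl, none was lower, and none was past 2-fold in RP_UV over WT_UV, with medians of 1.13, 0.93 and 0.01. With no cell limits, the median of RP_UV over WT_Ctrl turned to -0.37 and Krtdap to -0.21. Krtdap, a keratinocyte differentiation protein, was at 566, 2042 and 2031 CPM, Krt1 at 136, 419 and 477 CPM and Dmkn, dermokine, at 781, 1151 and 2173 CPM. A few cells carried these in WT_UV: 1 member held 50% of the Krt1 UMIs, and the 30 bulge-type cells stood at 3302 CPM of Krt10 with and 429 CPM without the 3 cells rich in Krt1 and Krt10.

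Most cell cycle genes were higher in RP_UV than in WT_Ctrl. Of 17 compared genes 3 were past 2-fold higher in WT_UV over WT_Ctrl, 3 in RP_UV over WT_UV and 11 in RP_UV over WT_Ctrl, and none was lower, with medians of 0.61, 0.50 and 1.21. Rrm2, a subunit of ribonucleotide reductase, was at 9.49, 41.3 and 83.0 CPM, and Tyms, thymidylate synthase, at 38.7, 40.1 and 124 CPM. Birc5, which encodes survivin, was at 22.6, 49.3 and 109 CPM, and Top2a, topoisomerase II alpha, at 81.0, 136 and 194 CPM. These 4 had their highest level in RP_UV, though Top2a in RP_UV over WT_UV turned to a log2 ratio of -0.12 with no cell limits. Mki67, a marker of cycling cells, was at 67.9, 152 and 149 CPM, past 2-fold higher in both irradiated skins and level between them (log2 ratio -0.03), but WT_UV over WT_Ctrl turned to -1.28 when the rule was applied after thinning. At least 2 UMIs of 8 mitosis genes were found in 11.1%, 27.7% and 38.1% of members and, after thinning, in 7.22%, 13.2% and 25.6%, against 7.33%, 5.76% and 21.3% of the remaining keratinocytes and 0% (0 of 174 cells, which allows up to 1.72%), 0% (0 of 7 cells, which allows up to 42.9%) and 0.685% of fibroblasts. Both types of follicle cell contributed in RP_UV, with thinned shares of 21.9% in the bulge-type and 24.0% in the upper-follicle-type, against 8.75% and 4.29% in WT_Ctrl. In WT_UV the list depended on the deepest cells, as its median against WT_Ctrl turned to -0.16 when only cells under 4000 genes were kept. Ccnd2, a cyclin of the G1 phase, stood at 434, 292 and 255 CPM, lowest in RP_UV and not past 2-fold.

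**Figure D5:**
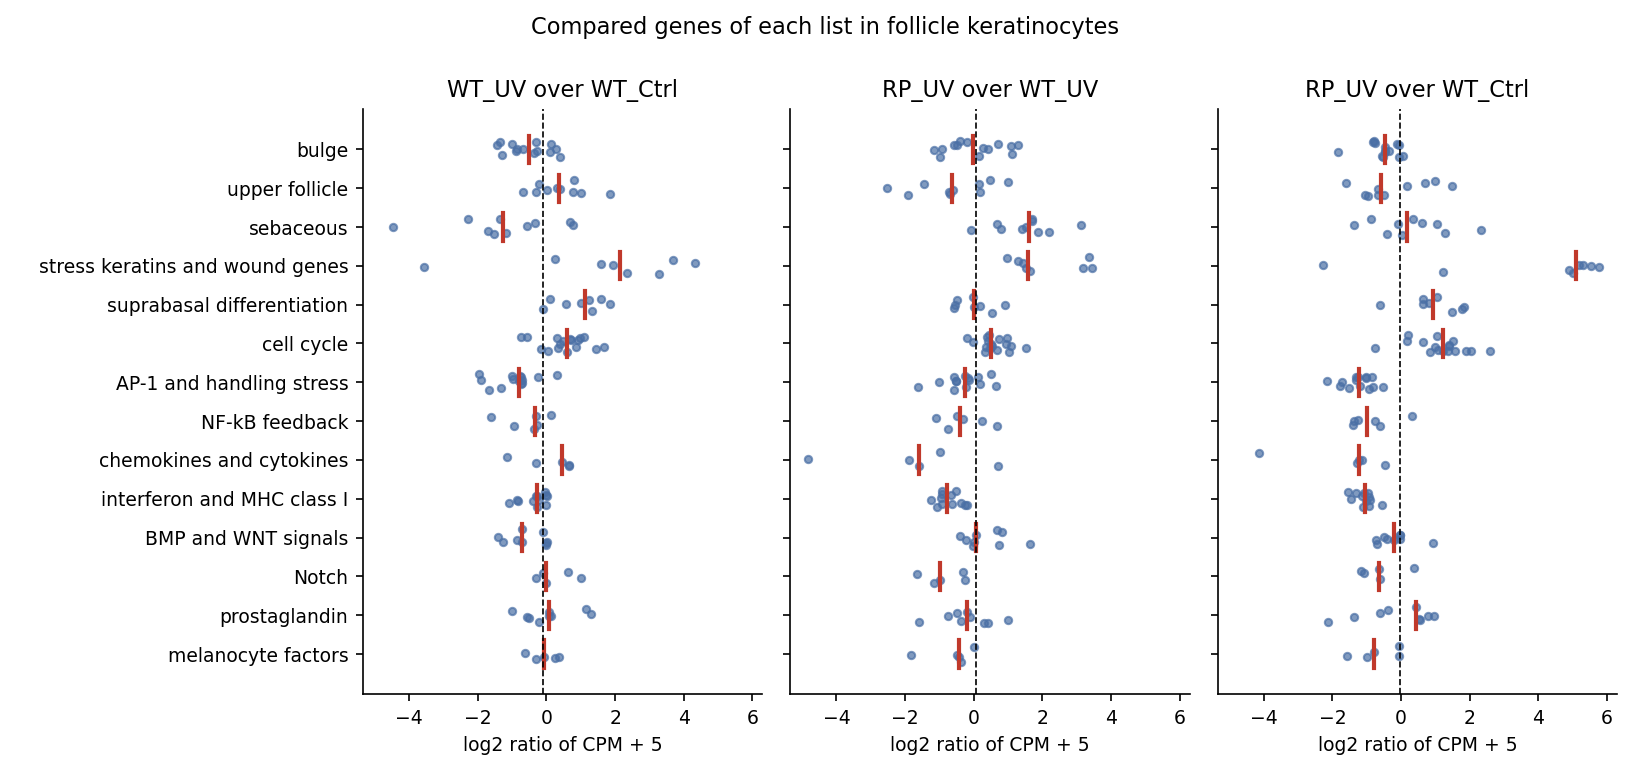
Each point is the log2 ratio of CPM + 5 of 1 compared gene of a list in follicle keratinocytes, for the 3 comparisons, red bars are list medians and the dashed line is the median of all 5334 compared genes. Stress keratins and wound genes lie furthest to the right in WT_UV over WT_Ctrl and RP_UV over WT_Ctrl, and sebaceous genes lie to the left in the first panel and to the right in the second.

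Of the immediate early and heat shock genes, which cells switch on soon after a stimulus or tissue handling, most were lower in RP_UV than in WT_Ctrl. All 14 were compared, 5 were past 2-fold lower in WT_UV over WT_Ctrl, 2 in RP_UV over WT_UV and 10 in RP_UV over WT_Ctrl, and none was higher, with medians of -0.79, -0.25 and -1.24. Atf3, a stress-induced transcription factor, stood at 389.8, 99.3 and 83.7 CPM, Fosb, an AP-1 subunit, at 451, 111 and 127 CPM and Egr1 at 589, 357 and 174 CPM. The heat shock gene Hspa1b was at 434, 539 and 173 CPM, highest in WT_UV. The remaining keratinocytes had the same order for Atf3 (1019.5, 439 and 132 CPM). The median of the list in RP_UV over WT_UV turned to 0.80 when the rule was applied after thinning. Btg2, a p53 target that is also an immediate early gene, stood at 515, 150.3 and 234 CPM. Of 18 p53 targets 8 were compared, 1, 1 and 3 were past 2-fold lower and none higher, with medians of -0.30, -0.07 and -0.43. Cdkn1a, the cell cycle inhibitor p21, was at 206, 266 and 121 CPM, lowest in RP_UV, although its ratio to WT_Ctrl turned from -0.74 to 0.15 on the log2 scale when the rule was applied after thinning, and Mdm2, which degrades p53, at 32.8, 23 and 12.5 CPM. Phlda3, a repressor of Akt, was highest in RP_UV (100.01, 88.9 and 157 CPM). NF-kB feedback genes had 6 of 10 compared and 1, 1 and 3 past 2-fold lower, with medians of -0.34, -0.40 and -1.0. Among them were Nfkbia, the inhibitor of NF-kB, at 441, 229 and 183 CPM, and Icam1, an adhesion molecule for leukocytes, at 78.1, 22.1 and 27.0 CPM.

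Ccl27a, the chemokine by which keratinocytes attract skin-homing T cells, was the gene with the lowest RP_UV level relative to WT_UV. It stood at 1908 CPM (1836 to 1983), 3029.5 CPM (2960.2 to 3100.1) and 103 CPM (92.8 to 113), which puts RP_UV 29.5-fold (26.7 to 32.7) below WT_UV and 18.6-fold (16.7 to 20.7) below WT_Ctrl. More than 1 gene of this symbol is annotated, and the one with more UMIs is given. Members with a UMI were 85.4%, 83.0% and 36.8%, or 79.4%, 77.2% and 19.7% after thinning, while T cells had 1.60%, 1.38% and 0% (0 of 61 cells, which allows up to 4.92%). Both types shared in it, with 1407, 1517 and 127 CPM in the bulge-type and 2124, 3511 and 75.3 CPM in the upper-follicle-type, and so did the remaining keratinocytes (1249, 1303 and 114 CPM). Cells called T cells by their Cd3 UMIs, a set that also carried myeloid markers, were 7.52%, 17.1% and 1.5% of kept cells. The bead enrichment and the greater depth of WT_UV also set these shares. A link between these shares and Ccl27a was not tested.

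Few other chemokines and cytokines reached the level for comparison. With Ccl27a, 5 of 22 were compared, none was past 2-fold higher in any comparison and 1, 3 and 4 were lower, with medians of 0.45, -1.59 and -1.23. Cxcl14, a chemokine of resting epithelium, stood at 604, 305 and 729 CPM in the bulge-type and 117, 56.9 and 22.4 CPM in the upper-follicle-type. RP_UV was thus the highest library in the one and the lowest in the other. Cxcl16, a membrane-bound chemokine, was at 70.1, 97.7 and 29.1 CPM and Il33, an alarmin, at 26.3, 44.7 and 8.32 CPM, both lowest in RP_UV. Below the level for comparison, Cxcl1, a neutrophil attractant, stood at 1.46, 3.76 and 27.3 CPM, Il18 at 0, 3.34 and 20.3 CPM and Cxcl10 at 20.4, 20.9 and 14.8 CPM.

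Most genes of interferon response and antigen presentation were lower in RP_UV than in WT_Ctrl. Of 12 compared genes 1 was past 2-fold lower in WT_UV over WT_Ctrl, 2 in RP_UV over WT_UV and 7 in RP_UV over WT_Ctrl, none was higher, and medians were -0.28, -0.78 and -1.06. Psmb8, an immunoproteasome subunit, was at 245, 200.4 and 81.1 CPM, Tap2, a peptide transporter, at 73.7, 62.6 and 30.7 CPM and Irf1, an interferon-response factor, at 45.3, 18.8 and 13.3 CPM. B2m and H2-K1, the light and a heavy chain of MHC class I, stood at 1809, 1485 and 942 CPM and 1692, 1358 and 874 CPM. Isg15, an interferon-stimulated ubiquitin-like protein that was below the level for comparison, was low in both irradiated skins (43.8, 6.26 and 3.64 CPM). When the rule was applied after thinning, Tap2 of RP_UV over WT_UV turned from a log2 ratio of -0.92 to 1.09. The MHC class II genes Cd74 and H2-Aa, which Langerhans cells express strongly, stood at 119.7, 89.3 and 13.3 CPM and 46.7, 38.8 and 4.94 CPM. After thinning Cd74 was found in 17.0%, 19.9% and 2.78% of members, 8.05%, 14.3% and 3.42% of fibroblasts and 94.2%, 85.3% and 54.7% of immune cells. It was lowest in RP_UV in all 3 kinds of cell, as the summed dendritic and Langerhans markers of the members were, and the part of free RNA in the members' value was not tested.

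Apart from Ccl27a and Cd74, the genes with the lowest ratio in RP_UV over WT_Ctrl included Alox12e, Fcgbp, Ear2 and Pyy. Alox12e, an epidermal lipoxygenase, stood at 329 CPM (299.5 to 361), 525 CPM (496 to 555) and 25 CPM (20.2 to 30.5), 21.0-fold (17.1 to 26.2) lower in RP_UV than in WT_UV. It belonged to the upper-follicle-type (581, 694 and 36.5 CPM) and was low in the remaining keratinocytes (25.6, 2.90 and 3.04 CPM). Fcgbp, an IgG Fc-binding protein, stood at 569, 429 and 52.3 CPM. Ear2, a ribonuclease of the eosinophil family, was at 73.7, 68.9 and 0.260 CPM but came from 8, 8 and 1 members. Pyy, which encodes the hormone peptide YY, was at 141, 6.68 and 0 CPM from 10, 5 and 0 members, and 1 cell held 55.4% of the WT_Ctrl UMIs. A few cells thus carried the last 2. Serpina3g, an inhibitor of cathepsins, was at 53.3, 23.4 and 3.64 CPM, Skint9, of the family that supports dendritic epidermal T cells, at 39.4, 55.9 and 4.42 CPM, and Slco2b1, an organic anion transporter, at 21.9, 36.3 and 1.82 CPM.

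A few of the largest ratios of WT_UV rested on single cells. Fabp4, a fatty acid-binding protein of adipocytes and endothelium, stood at 2.19, 262 and 63.4 CPM, from 2, 2 and 48 members, and Igfbp7 at 9.49, 112 and 32.2 CPM with 46.6% of the WT_UV UMIs in 1 cell. Endothelial markers summed to 0, 75.9 and 5.48 CPM in the upper-follicle-type, highest in WT_UV as Fabp4 was, and their part in the result was not tested. Igfbp2, an IGF-binding protein, was at 33.6, 4.17 and 116 CPM, 27.8-fold (15 to 58.5) higher in RP_UV than in WT_UV, where 90.0% of its UMIs were in 1 cell. Dbp, a transcription factor under clock control, stood at 39.4, 5.84 and 46.5 CPM and differed mainly between WT_UV and the 2 libraries of the other flow cell. Igfbp3, another IGF-binding protein, and Cldn10, a tight junction protein, were lower in both irradiated skins, at 43.8, 5.43 and 12.7 CPM and 63.5, 6.68 and 5.46 CPM.

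Factors that act on melanocytes, whose stem cells share the bulge, were mostly below the level for comparison. Of 16 list genes 5 were compared, and none, 1 and 2 were past 2-fold lower in the 3 comparisons, with none higher and medians of -0.07, -0.43 and -0.78. Kitl, the ligand of the melanocyte receptor Kit, was below that level at 23.4, 14.6 and 20.3 CPM (54.7, 29.5 and 51.2 CPM in the bulge-type). Cxcl12, a chemokine that attracts cells with the receptor Cxcr4, was at 72.3, 87.2 and 20.8 CPM. Its low level in RP_UV belonged to the upper-follicle-type (64.1, 109 and 7.76 CPM), whereas the bulge-type had 63.4, 48.0 and 55.3 CPM. Tgfb2, of the growth factor family that holds melanocyte stem cells at rest, was below the level for comparison at 19.7, 3.76 and 4.42 CPM. Col17a1, a hemidesmosomal collagen of bulge stem cells, was at 554, 355 and 274 CPM, and Nfib, a transcription factor by which hair follicle stem cells govern melanocyte stem cells, at 732, 593 and 423 CPM. Edn3, Fgf2 and Csf2, which encode melanocyte mitogens, had no UMI in the members of any library.

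The members and the remaining keratinocytes can be set side by side for the same genes. The differences below are between log2 ratios of CPM with no pseudocount, which the intervals need, and values on the CPM + 5 scale follow for the 3 genes where they differ most. For Krt16 the log2 ratio of WT_UV over WT_Ctrl was lower in members by 5.72 (counts alone, interval -6.45 to -4.98 for members minus the rest), as the remaining keratinocytes stood at 8.23, 1944 and 2319 CPM, and on the CPM + 5 scale the difference was -5.26. For Sprr1a, another cornified envelope precursor, the difference was -4.79 (-5.34 to -4.25), or -4.12 on the CPM + 5 scale, with 189, 225 and 449 CPM in members and 7.98, 263 and 232 CPM in the rest. In RP_UV over WT_UV the sign turned for Krt16, 3.17 (2.97 to 3.37). The chemokine Cxcl14 gave 3.18 (2.87 to 3.49) in that comparison, with 316, 139 and 228 CPM in members and 573, 273 and 49.5 CPM in the rest. Alox12e gave 3.82 (2.70 to 4.93), or 2.62 on the CPM + 5 scale, and -4.46 (-5.89 to -3.03) in the first and second comparison, and Defb6 2.13 (1.56 to 2.69) and -3.82 (-4.35 to -3.30). In RP_UV the remaining keratinocytes held 501 CPM of Krt79 and 748 CPM of Krt17, as some of them carried 1 follicle gene.

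Matrix adhesion genes had 10 of 13 compared with none, none and 2 past 2-fold lower and none higher (medians -0.21, -0.10 and -0.16), and Itga6 and Itgb1, integrins of the basal layer, stood at 151, 132 and 135 CPM and 126, 124 and 113 CPM. Lamb3, a chain of the basement membrane laminin, was 1 of the 2, at 101, 55.1 and 34.8 CPM. Metallothionein and NRF2 genes had 9 of 13 compared, none higher and none, 1 and 1 lower (medians -0.14, 0.34 and 0.25), with the metal-binding Mt1 at 485, 379.8 and 695 CPM. EGF family genes had 4 of 9 compared (medians -0.25, -0.50 and -0.78) with 1 past 2-fold lower in RP_UV over WT_Ctrl, the receptor Egfr, at 85.4, 53 and 38.0 CPM. Its ligands Areg and Epgn were below the level for comparison, at 7.30, 11.7 and 40.0 CPM and 16.1, 4.59 and 28.1 CPM, both highest in RP_UV. Basal interfollicular genes, which share Krt14 and Krt5 with the rule, had 9 of 10 compared (medians 0.04, 0.15 and 0.33), 1 lower in WT_UV over WT_Ctrl and 1 higher and 1 lower in RP_UV over WT_Ctrl. Trp63, the master regulator of stratified epithelium, was at 266, 217 and 182 CPM.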

How the data were processed

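Cells were prepared and sequenced by the authors, and the deposited matrices hold UMI counts per gene and barcode from Cell Ranger 6.1.1 (file header) on mm10 (submitters' processing notes), over 32285 genes. Cells with under 10% mitochondrial UMIs and more than 200 and fewer than 4000 genes (6000 in WT_UV) were kept, as in the study. No doublet caller was run, and how the deposited data treated doublets is not given in the sources used here. The members and gene lists were chosen with earlier results of these data known. UMIs were summed over the members of a library and divided by their total (1369904, 2395746 and 3845635 UMIs in WT_Ctrl, WT_UV and RP_UV) to give CPM. Intervals of 95% are exact Poisson (levels), exact binomial (shares, and ratios conditional on the sum), and cover counting error only. Log2 ratios used CPM + 5 and genes with a mean of at least 20 CPM. Thinning used a fixed seed. Of symbols shared by several genes, the one with more UMIs was used. T cells had at least 2 UMIs of Cd3d, Cd3e and Cd3g, immune cells at least 3 of Ptprc and Tyrobp, and fibroblasts at least 10 of Col1a1 and Col1a2 with at most 1 of Ptprc and Tyrobp, all under 10 of Krt14 and Krt5. Genes named are the rule genes, Ptgs2, members of the lists, the 8 genes with the highest and the 8 with the lowest ratio past 2-fold in each comparison, and 15 identity genes, leaving out mitochondrial and ribosomal protein genes from the ranked ones. Some genes that the rule selects are not reported here. Alternatives changed the cell rule, the depth, the summary over cells, the pseudocount (1 CPM), the filter and the scaling (TMM). The ratio step was tested on artificial counts with known answers, drawn from the Poisson model that the intervals assume. That test held no counts clumped in single cells, so it does not cover such genes. Python 3.11.15, numpy 2.4.6, scipy 1.17.1, pandas 2.3.3, matplotlib 3.10.9, R 4.3.3 and edgeR 4.0.16 (TMM factors only) were used.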

Additional observations from a re-analysis of the deposited data

Results flagged for a closer look

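Among 375 named or listed genes, 13 differences of 11 genes stood out because the bulge-type and the upper-follicle-type moved in opposite directions in 1 comparison, each by more than its counting interval. With 1 library a group the difference between the types was not tested, and all differences below are the log2 ratio in the bulge-type minus that in the upper-follicle-type, on the CPM + 5 scale.

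The bulge gene Cd34 differed by -3.43 for WT_UV over WT_Ctrl and by 3.68 for RP_UV over WT_UV (101, 20.3 and 121 CPM in the bulge-type and 0, 7.91 and 0 CPM in the upper-follicle-type). The matrix protein gene Sparc differed by -3.96 and 3.63 in the same comparisons (94.1, 44.3 and 159 CPM in the bulge-type and 3.13, 57.7 and 11.9 CPM in the upper-follicle-type), and the chemokine Cxcl14 by 2.42 for RP_UV over WT_UV. Endothelial cells also express Cd34 and Sparc, and endothelial markers summed to 0, 75.9 and 5.48 CPM in the upper-follicle-type and 4.38, 1.85 and 23.1 CPM in the bulge-type over 5 genes, highest in WT_UV in the former, as Cd34 and Sparc were. Their part in these values was not tested. Msmo1, of cholesterol synthesis, differed by 3.96 for WT_UV over WT_Ctrl (24.1, 57.2 and 39.2 CPM in the bulge-type and 577, 75.1 and 374 CPM in the upper-follicle-type).

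For RP_UV over WT_UV, Krt1 differed by -5.73 and Krt10 by -4.92. The WT_UV bulge-type included 3 of 30 cells rich in both, and without them it held 182 CPM of Krt1 and 429 CPM of Krt10. Sprr1a, of the cornified envelope, differed by -5.51 (2.19, 155 and 3.02 CPM in the bulge-type and 397, 334 and 768 CPM in the upper-follicle-type). Fabp4 differed by 10.07 and Igfbp7 by 5.82, where 2 cells held all Fabp4 UMIs of WT_UV and 1 cell held 46.6% of its Igfbp7 UMIs. Abcc4, an exporter of prostaglandins, differed by -2.44 and the chemokine Ccl20 by -2.42, both at 16.4 CPM or less in every library and type.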

How the results depend on the processing

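No paired analysis was possible because each group held 1 library, so leaving out a replicate was not possible either. Percentages of members among keratinocytes are given below in the order WT_Ctrl, WT_UV and RP_UV. They were 11.4%, 27.9% and 32.4% when cells were thinned before the rule, 13.2%, 31.9% and 27.5% with 3 follicle genes required, and 18.5%, 38.1% and 33.7% without Krt17 in the rule. Both irradiated skins stayed above WT_Ctrl in these 3 settings. The bulge-type of WT_Ctrl was 53.4% of members when cells were thinned before the rule. The numbers of genes past 2-fold moved by over 1.5 times as follows. For WT_UV over WT_Ctrl, thinning gave 183 higher and 270 lower, a filter of 1 UMI gave 212 and 281, cells under 4000 genes gave 188 lower and no cell limits gave 69 lower. For RP_UV over WT_UV, a filter of 1 UMI gave 262 higher and 269 lower, and 321, 78 and 229 were higher with cells under 4000 genes, with no cell limits and without the highest cell of each gene. For RP_UV over WT_Ctrl, thinning gave 345 higher and 421 lower, a filter of 1 UMI gave 361 and 486, 3 follicle genes gave 322 higher and TMM scaling gave 162 lower. More genes were compared under the filter of 1 UMI. The cause was not tested for the others.

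Some log2 ratios changed sign. When cells were thinned before the rule, which leaves 73, 60 and 206 members at 2000 UMIs each, WT_UV over WT_Ctrl became 0.95 for the sebaceous list and -0.080 for chemokines, and -1.90 for Fabp4, -1.79 for Igfbp7, 0.27 for Mgst1, -1.28 for Mki67, 0.17 for Msmo1, 0.68 for Fasn, 0.083 for Serpina3g and 4.0 for Cidea. RP_UV over WT_UV became 0.80 for the list of immediate early and heat shock genes, 4.66 for Fabp4, 1.72 for Igfbp7, -0.18 for Stfa1, -0.14 for Cbr1 and 0.41 for Egr1, and RP_UV over WT_Ctrl 0.25 for the upper follicle list, -0.073 for Igfbp7 and 4.77 for Scd3. With cells under 4000 genes, Fabp4 became -0.52 and 3.78 in the first and second comparison, and the cell cycle list -0.16 in the first. With 3 follicle genes, chemokines became -0.037 in the first. With no cell limits, Igfbp2 became 0.38 in the first comparison, and in RP_UV over WT_Ctrl the suprabasal list became -0.37 and Krtdap -0.21. With a filter of 1 UMI, melanocyte factors became 0.016 and the EGF family 0.10 in RP_UV over WT_UV, and the EGF family 0.076 in RP_UV over WT_Ctrl. In RP_UV over WT_Ctrl the sebaceous list became -0.062 with no UMI of Ptprc or Tyrobp and -0.10 with equal weight of both types, and Scd3 became 0.49 without its highest cell. Of all 8784 gene values under these settings, 532 had another sign than the reported value, 117 of them when cells were thinned before the rule. The genes of 20 were past 2-fold as reported and are given here. Of the rest, 1874 moved beyond the counting interval and 6890 did not. Equal weight of both types and leaving out the highest cell were chosen after seeing the data. Depth limits the low genes most, since no UMI allows up to 2.19 CPM in WT_Ctrl and 0.780 CPM in RP_UV.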
